A study of Mus musculus with 6 samples.

Results

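The secreted Wnt inhibitors Wif1, Sfrp1, Sfrp2, Sfrp4, Sfrp5, Frzb, Dkk1, Dkk2 and Dkk3 were followed in heart ventricles that carry extra miR-499. They are 9 of the 19938 genes that the arrays measured with a probe set of a single gene symbol. For each gene the probe set with 1 symbol and the highest mean over the 6 mice was taken, and each of the 9 had exactly 1 such probe set. The set was chosen by family membership with the log2 differences between the transgenic and wild-type mice on these same arrays in view, among them that of Wif1. Values of the 9 genes are therefore given as a description, without a test.

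RNA came from the cardiac ventricles of 3 miR-499 transgenic mice (TG) and 3 wild-type littermates (WT), taken on day 17 after birth. Each mouse was measured on its own Affymetrix gene array, so replicates are separate animals. The transgene places the mouse pre-miR-499 region under the Myh6 (alpha-myosin heavy chain) promoter, which is active in heart muscle cells, and was injected into FVB/NCrl embryos. The TG mice are of line TG-17, the weaker of the study's lines, and represent a single transgenic line, while WT mice carry no transgene. Whole ventricle was used, so fewer cells of a type and less RNA per cell cannot be told apart in any value below. Mir499 itself had log2 values of 9.31, 9.33 and 8.87 in TG mice, against 5.48, 5.34 and 5.68 in WT mice, and the log2 difference was 3.67 (standard error 0.15, limma adjusted p = 0.00772), the direction that the labels give. The transgene product is shown with its seed, bases 2 to 8, in capitals, since the groups differ in carrying its transgene. The sequence is that of RefSeq in GRCm38.p6, chr2:155622893-155622913, plus strand.
mmu-miR-499-5p: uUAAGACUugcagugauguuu

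Wnt proteins are secreted signals that bind Frizzled receptors together with the co-receptors Lrp5 and Lrp6. In the canonical branch this stabilizes beta-catenin, which enters the nucleus and switches on target genes with TCF/LEF factors. Secreted inhibitors act outside the cell. Wif1 and the secreted Frizzled-related proteins (Sfrp genes and Frzb, also called Sfrp3) bind Wnt ligands, whereas Dickkopf proteins such as Dkk1 bind the Lrp co-receptors. In the heart Wnt signaling guides early cardiac formation and valve development, is low in the healthy grown ventricle and is known to be re-activated after injury.

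Of the 9 inhibitors, 3 had TG values that lay wholly below the WT values, namely Wif1, Dkk3 and Dkk1, and none had TG values wholly above. Over all 19938 genes the groups did not overlap in 25.8%, with TG lower in 13.6% and higher in 12.2%. The other 6 inhibitors overlapped between the groups, with log2 differences (TG minus WT) between -0.11 and 0.079. At a log odds B above 0, the cut-off used here for a changed transcript, 1 of the 9 lay past it, which was Wif1, against 0.341% of all genes and 0.366% of all probe sets. These counts describe genes chosen with this comparison known, and nothing is read from them. A lower mean in TG was found for 7 of the 9, and for 55.6% of all genes. The median log2 difference was -0.059 over the 9 genes and -0.018 over all genes.

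Wif1 encodes Wnt inhibitory factor 1, a secreted protein that binds Wnt ligands directly. Its log2 values were 8.12, 8.25 and 8.16 in TG mice, against 8.78, 8.71 and 8.80 in WT mice. The highest TG value stayed 0.463 below the lowest WT value, and within each group the mice lay close together. Wif1 averaged 8.18 ± 0.067 in TG ventricles and 8.76 ± 0.046 in WT ventricles (SD, n = 3 each), a log2 difference of -0.59 (standard error 0.058), which puts TG at 0.665 times the WT level. Ordered by log2 difference, Wif1 stood at rank 14 from the lowest of all 19938 genes.

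Dkk3, a Dickkopf relative whose part in Wnt signaling is less settled than that of Dkk1, had log2 values of 7.64, 7.64 and 7.44 in TG mice and 7.95, 7.93 and 8.01 in WT mice. The groups were separated by a gap of 0.287, and TG mouse 3 was the lowest. Dkk3 averaged 7.58 ± 0.11 in TG ventricles and 7.96 ± 0.04 in WT ventricles (SD, n = 3 each), a log2 difference of -0.39 (standard error 0.072) or 1.31-fold lower in TG. It stood at rank 119 from the lowest.

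Dkk1, the founding Dickkopf inhibitor that binds Lrp5 and Lrp6, had log2 values of 6.19, 6.20 and 6.35 in TG mice and 6.53, 6.54 and 6.41 in WT mice. Here the gap between the groups was only 0.066, set by TG mouse 3 and WT mouse 3. Its mean was 6.25 ± 0.087 in TG ventricles and 6.50 ± 0.072 in WT ventricles (SD, n = 3 each), a log2 difference of -0.25 (standard error 0.069) and 1.19-fold lower in TG. Dkk1 stood at rank 829 from the lowest. Dkk2, which can inhibit or activate Lrp6 depending on the Kremen proteins present, had 6.28, 6.36 and 6.40 in TG mice and 6.47, 6.32 and 6.43 in WT mice. Its log2 difference of -0.059 (standard error 0.064) was smaller than its standard error, unlike those of Dkk1 and Dkk3.

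**Figure D1:**
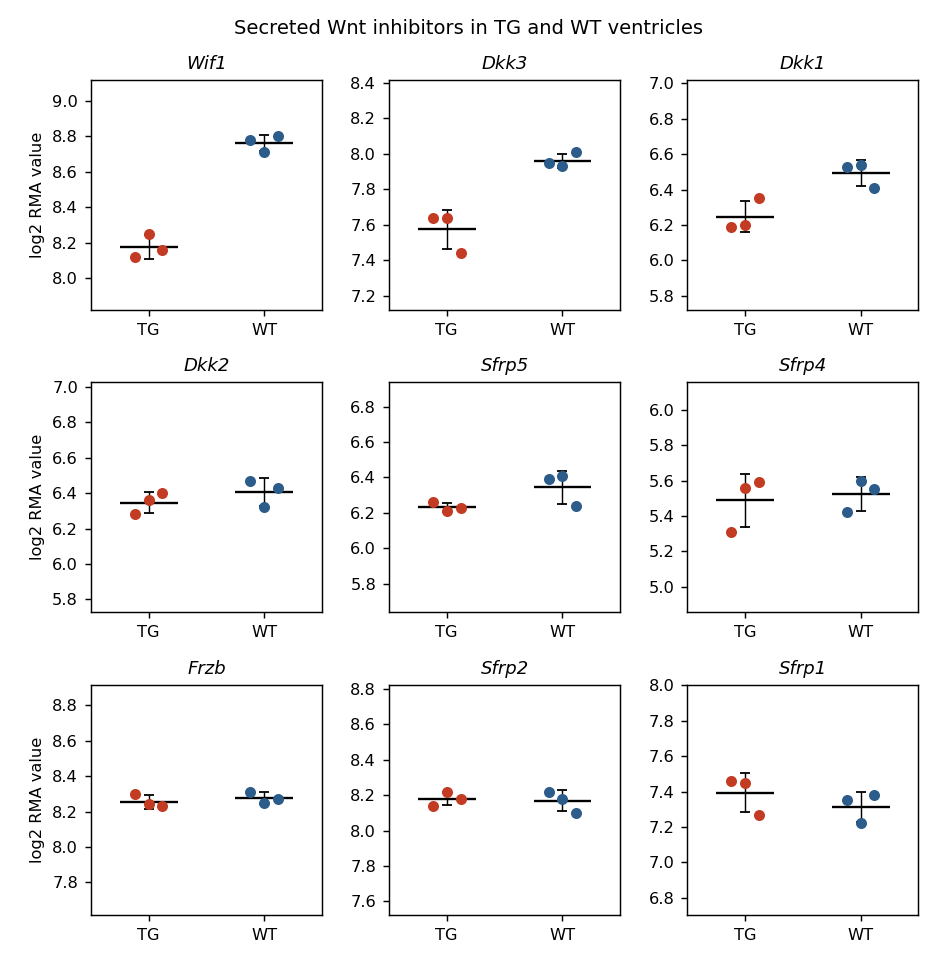
Log2 RMA values (vertical axes, each spanning 1.3 log2 units) of the 9 secreted Wnt inhibitors in ventricles of TG mice (red, left) and WT mice (blue, right). Each point is 1 mouse, bars give the mean of a group and whiskers its SD (n = 3 each). For Wif1, Dkk3 and Dkk1 all TG points lie below all WT points, with gaps of 0.463, 0.287 and 0.066, and for the other 6 genes the groups overlap.

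The secreted Frizzled-related protein genes had overlapping groups throughout. Frzb, a Wnt-binding protein first known from cartilage, had log2 values of 8.30, 8.24 and 8.23 in TG mice and 8.31, 8.25 and 8.27 in WT mice, a log2 difference of -0.020 (standard error 0.051). Sfrp2, a matrix-associated family member made by fibroblasts, had 8.14, 8.22 and 8.18 in TG mice and 8.22, 8.18 and 8.10 in WT mice, a log2 difference of 0.011 (standard error 0.055). Both genes differed by less than the SD of either group. Sfrp1, which binds Wnts through its Frizzled-like domain, had 7.46, 7.45 and 7.27 in TG mice and 7.35, 7.22 and 7.38 in WT mice, the largest difference upwards of the 9 at 0.079 (standard error 0.078).

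Sfrp5, known as an antagonist of Wnt5a in fat tissue, had log2 values of 6.26, 6.21 and 6.23 in TG mice and 6.39, 6.41 and 6.24 in WT mice. WT mouse 3 fell within the TG range, so the groups touched, and the log2 difference was -0.11 (standard error 0.063). Sfrp4, whose loss causes a bone disorder in humans, had 5.31, 5.56 and 5.59 in TG mice and 5.42, 5.60 and 5.55 in WT mice, a log2 difference of -0.035 (standard error 0.095). As a gauge of background, 1207 olfactory, vomeronasal and trace amine receptor genes, most of which are used in the nose, had mean log2 values with a median of 4.47 and a 95th percentile of 6.28. Only Sfrp4, at a mean of 5.51 over the 6 mice, lay below that percentile, while Sfrp5, Dkk1 and Dkk2 at 6.29, 6.37 and 6.38 lay just above it. These 4 genes were thus measured near the range of the gauge, and probe sets of different genes differ in how well they bind.

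Differences between the groups varied with how brightly a gene was measured. The median array value was 6.89 to 6.91 in TG mice and 6.94 to 6.95 in WT mice. Over all genes with a mean log2 value of 6 to 7, where Dkk1 lies, the median log2 difference was -0.070 and 19.5% had TG values wholly below WT values. Over genes from 7 to 8, where Dkk3 lies, the median was -0.041 and 17.6% were wholly below. Over genes from 8 to 9, where Wif1 lies, the median was 0.018 and 11.6% were wholly below. Against these medians Dkk1 and Dkk3 were lower by less than their raw differences and Wif1 by slightly more. After a second quantile normalization the medians were -0.017, -0.011 and 0.004, and Wif1, Dkk3 and Dkk1 stayed lower in TG. The lower mean of 7 of the 9 genes in TG did not hold to this degree under other scalings. With each array centred on its median 5 of the 9 had a lower mean, and after the second quantile normalization 6 of the 9 did, the genes that turned being Sfrp4 in both and Frzb in the first.

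**Figure D2:**
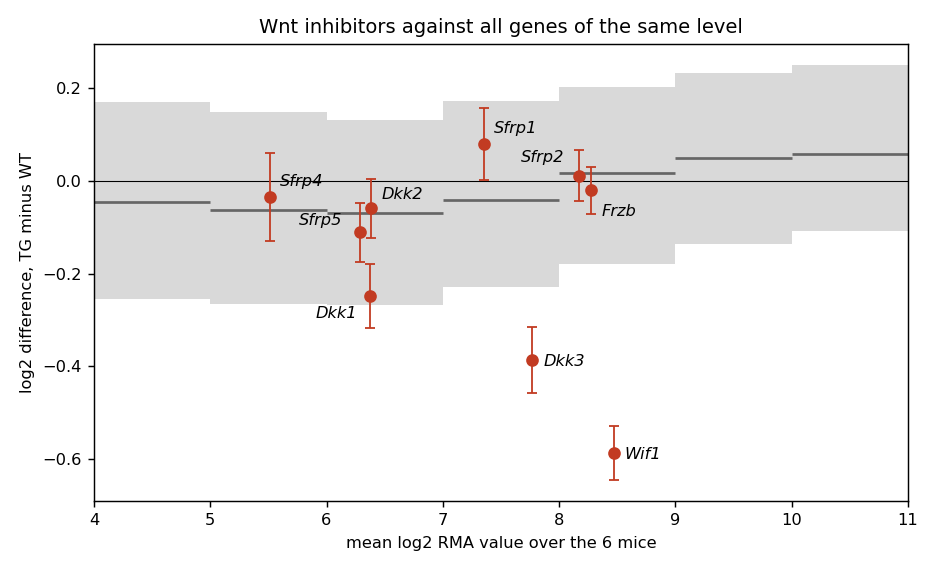
Log2 difference, TG minus WT (vertical axis), against the mean log2 RMA value over the 6 mice (horizontal axis). Red points are the 9 inhibitors with their standard errors, grey bands span the 5th to 95th percentile of all genes in each range of level, and dark grey lines are their medians. Wif1 at -0.59 and Dkk3 at -0.39 lie below the band, and Dkk1 at -0.25 lies inside it near its lower edge.

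Promoter sequences of RefSeq (GRCm38.p6) were at hand for 6 of the 9 inhibitors, namely Wif1, Dkk1, Dkk2, Frzb, Sfrp2 and Sfrp5. The 250 bases before the annotated start of Wif1 and Dkk1 are shown because their values did not overlap between the groups, and those of Frzb because its values were nearly level. Capitals mark matches to the TCF/LEF core CTTTGA on either strand (TCAAAG on the other), to the EGR site GCGGGGGCG on either strand (CGCCCCCGC on the other), and to the TATA box TATAAA on the strand of the gene. None of these motifs overlaps another in the windows shown.
Wif1 (chr10:121033754-121034003, plus strand): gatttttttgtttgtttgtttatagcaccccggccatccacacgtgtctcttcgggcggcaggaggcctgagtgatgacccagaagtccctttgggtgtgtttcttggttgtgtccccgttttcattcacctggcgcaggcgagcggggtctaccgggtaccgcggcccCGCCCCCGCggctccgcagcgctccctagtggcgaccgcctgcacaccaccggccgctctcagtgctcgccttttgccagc
Dkk1 (chr19:30549497-30549746, minus strand): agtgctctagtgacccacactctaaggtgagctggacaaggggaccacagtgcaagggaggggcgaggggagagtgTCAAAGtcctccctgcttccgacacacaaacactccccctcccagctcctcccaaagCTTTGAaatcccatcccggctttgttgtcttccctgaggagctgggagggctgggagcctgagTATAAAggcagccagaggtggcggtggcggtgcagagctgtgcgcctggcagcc
Frzb (chr2:80447397-80447646, minus strand): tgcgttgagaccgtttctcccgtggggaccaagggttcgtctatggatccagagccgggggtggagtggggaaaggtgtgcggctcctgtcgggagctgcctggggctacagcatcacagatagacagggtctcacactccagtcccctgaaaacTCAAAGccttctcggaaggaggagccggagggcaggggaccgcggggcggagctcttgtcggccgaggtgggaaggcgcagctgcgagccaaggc

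Wif1 held 1 EGR match, which begins 81 bases before the start and lies in a GC-rich stretch, and no TCF/LEF core. Among 32851 promoters of the same length 2.57% held that EGR site. Dkk1 held 2 TCF/LEF cores, at 174 and 117 bases before the start, and a TATA box at 54. Frzb held 1 TCF/LEF core at 95. The TCF/LEF core occurred in 13.8% of all promoters and the TATA box in 7.59%. Dkk2 had a TATA box at 32 bases and neither of the other motifs, and Sfrp2 and Sfrp5 had none of the 3. The Wif1 window had 62.8% G and C with 21 CpG pairs and the Dkk1 window 60.8% with 6 CpG pairs. Genes with overlapping groups had 64.4% with 16 pairs (Frzb), 63.6% with 16 (Sfrp2), 59.6% with 13 (Sfrp5) and 55.6% with 7 (Dkk2). The medians over all promoters were 52.4% and 6. A match is a string of letters, and no binding was measured.

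The rest of the Wnt pathway, 122 genes measured of 124 in 8 lists, had no gene at B above 0 in limma, where 68 of all genes (0.341%) were. A nominal cut-off, an unadjusted limma p under 0.05, was met by 13 genes that were higher and 14 that were lower in TG. These 27 genes were 22.1% of the 122, beside 15.4% of all genes. Of all genes, 6.65% were higher and 8.76% lower at this cut-off. The median log2 difference over the 122 genes was -0.021, beside -0.018 over all genes. The lists were drawn up with earlier results of these arrays known, and they share genes.

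Wnt ligands are the signals that Wif1 and the secreted Frizzled-related proteins bind. Among 19 ligand genes, 17 had a lower mean in TG and the median log2 difference was -0.099. The nominal cut-off was met by 3 of the 19, all lower. This was 15.8%, beside 15.4% of all genes and 8.76% that were lower. Wnt4, a ligand active in kidney and gonad formation, had log2 values of 8.29, 8.16 and 8.16 in TG mice, against 8.53, 8.56 and 8.37 in WT mice. Its log2 difference was -0.29 (standard error 0.075, limma adjusted p = 0.234). Wnt8b and Wnt9b were the other ligands past it, with log2 differences of -0.29 (standard error 0.10) and -0.15 (standard error 0.05). Wnt8b, at 5.02 in TG and 5.31 in WT, lay below the 95th percentile of 6.28 of the background gauge, and 17 of the 19 ligands had a mean under a log2 value of 8, where all genes leaned lower in TG.

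All 4 R-spondins, secreted proteins that raise Wnt signaling by sparing Frizzled receptors from breakdown, had a lower mean in TG. They lay at levels of 5 to 7. A lower mean was found for 69.9% of all genes at 5 to 6 and for 73.2% at 6 to 7. The nominal cut-off was met by 2 of the 4, both lower, or 50%, beside 15.4% of all genes and 8.76% that were lower. Rspo3 had log2 values of 5.76, 5.62 and 5.59 in TG mice and 6.05, 5.94 and 5.89 in WT mice, a log2 difference of -0.30 (standard error 0.073, limma adjusted p = 0.229). For Rspo1 the log2 difference was -0.13 (standard error 0.045). All 6 Rspo3 values lay below 6.28, the 95th percentile of the nasal receptor genes used as a gauge of background, and Rspo1 lay between 6 and 7, where the median difference of all genes was -0.070. Of the 3 genes for Wnt secretion and release, Porcn, Wls and Notum, none met the nominal cut-off, and Wls, the carrier that brings Wnts to the cell surface, had a log2 difference of 0.0070 (standard error 0.048).

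Of 20 receptors and co-receptors 4 met the nominal cut-off as higher and 1 as lower, 25% beside 15.4% of all genes. Ror1, a receptor tyrosine kinase for Wnt5a, had log2 values of 9.33, 9.30 and 9.25 in TG mice and 9.10, 9.11 and 9.05 in WT mice, a log2 difference of 0.21 (standard error 0.05, limma adjusted p = 0.229). Lrp5, the co-receptor that Dkk1 and Sost bind, had a log2 difference of 0.15 (standard error 0.055), and Fzd8 one of -0.20 (standard error 0.07). Ror1 and Lrp5 had means over the mice between 9 and 10, where the median difference of all genes was 0.049. Lrp6, the other co-receptor, differed by -0.014 (standard error 0.047).

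Of 14 other antagonists and modulators of the pathway, measured beside the 9 inhibitors, 1 met the nominal cut-off as higher and 3 as lower. This was 28.6% of them, beside 15.4% of all genes. Kremen1, the cell-surface partner of Dickkopf proteins, had log2 values of 8.99, 9.04 and 9.09 in TG mice and 8.84, 8.68 and 8.92 in WT mice, a log2 difference of 0.23 (standard error 0.076, limma adjusted p = 0.27). Kremen1 thus had the opposite sign to Dkk1. The bone protein Sost, which also binds Lrp5 and Lrp6, had a log2 difference of -0.19 (standard error 0.062), and the secreted collagen triple helix protein Cthrc1 one of -0.22 (standard error 0.069). The fourth Dickkopf gene, Dkk4, had a log2 difference of -0.046 (standard error 0.089), with an interval from -0.26 to 0.17 at the 95% level.

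**Figure D3:**
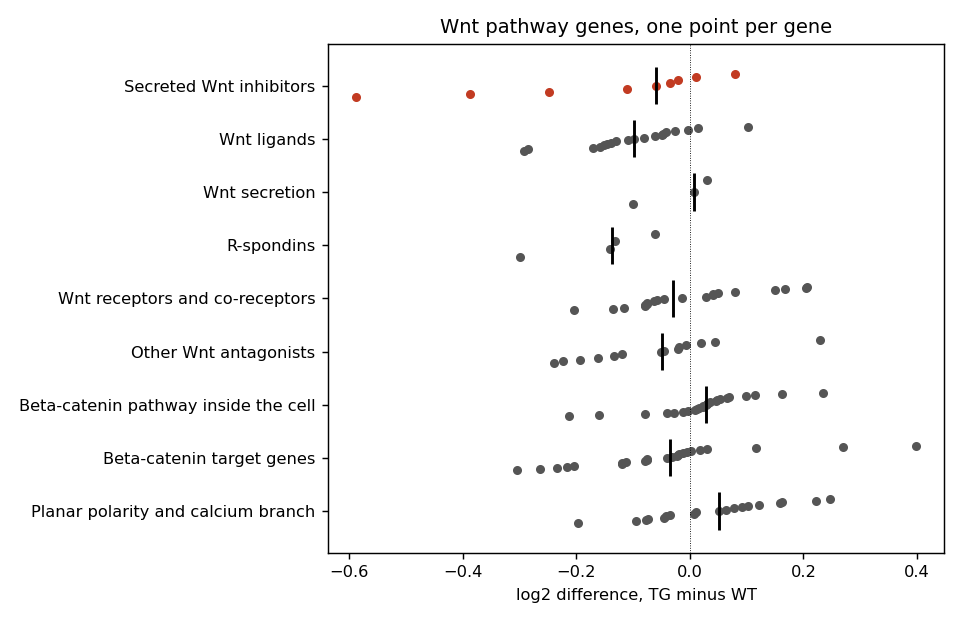
Log2 difference, TG minus WT (horizontal axis), of the 9 secreted Wnt inhibitors (red) and of the genes of 8 further Wnt lists (grey). Each point is 1 gene and the black bar is the median of its list. Wif1 and Dkk3 at -0.59 and -0.39 lie to the left of all genes of the other lists, and the inhibitors' median is -0.059.

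Inside the cell, 25 genes of the beta-catenin pathway were measured, and the nominal cut-off was met by 2 higher and 1 lower gene. These were 12% of the 25, beside 15.4% of all genes. Gsk3b, a kinase that marks beta-catenin for breakdown, had a log2 difference of 0.16 (standard error 0.053) and Tcf7l1, a TCF/LEF factor that mainly represses, one of 0.23 (standard error 0.065). The scaffold gene Dvl2, which passes the signal on from Frizzled, differed by -0.21 (standard error 0.056). Gsk3b had a mean over the mice between 9 and 10, where the median difference of all genes was 0.049. Tcf7l1 and Dvl2 had means between 7 and 8, where that median was -0.041. Beta-catenin itself, Ctnnb1, differed by 0.012 (standard error 0.05).

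Among 24 beta-catenin target genes the nominal cut-off was met by 2 higher and 4 lower ones, 25% beside 15.4% of all genes. Nkd1, a feedback inhibitor induced by Wnt signaling, had log2 values of 6.84, 6.98 and 6.80 in TG mice and 7.18, 7.10 and 7.13 in WT mice, a log2 difference of -0.26 (standard error 0.065, limma adjusted p = 0.232). Axin2, the widely used readout gene of canonical signaling, was named after its value was seen. Its log2 values were 6.95, 6.93 and 7.15 in TG mice and 7.22, 7.29 and 7.22 in WT mice, a log2 difference of -0.23 (standard error 0.076, limma adjusted p = 0.268). Both groups were separate for these 2 genes, which lie at the dim levels that leaned lower in TG as a whole.

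Cd44 and Myc had higher values in TG. Cd44, a hyaluronan receptor, had 7.66, 7.65 and 7.70 in TG mice and 7.34, 7.51 and 7.35 in WT mice, a log2 difference of 0.27 (standard error 0.065, limma adjusted p = 0.229). Myc, a growth-promoting transcription factor that many pathways induce and that was also named after its value was seen, differed by 0.40 (standard error 0.13, limma adjusted p = 0.27). Fgf9, a growth factor of the heart lining, had a log2 difference of -0.20 (standard error 0.061), and Lef1 and Ccnd1 had differences of -0.040 (standard error 0.07) and 0.017 (standard error 0.059).

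In the branch of planar polarity and calcium signals, 4 of 19 genes met the nominal cut-off, all higher. This was 21.1%, beside 15.4% of all genes and 6.65% that were higher. Nlk, a kinase that phosphorylates TCF/LEF factors, had log2 values of 9.51, 9.47 and 9.47 in TG mice and 9.26, 9.29 and 9.22 in WT mice, a log2 difference of 0.22 (standard error 0.049, limma adjusted p = 0.224). The formin gene Daam1 and the kinase gene Camk2d had differences of 0.25 (standard error 0.072) and 0.16 (standard error 0.06). All 3 were bright, above a log2 value of 9, where the median difference of all genes was 0.049 to 0.059.

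**Figure D4:**
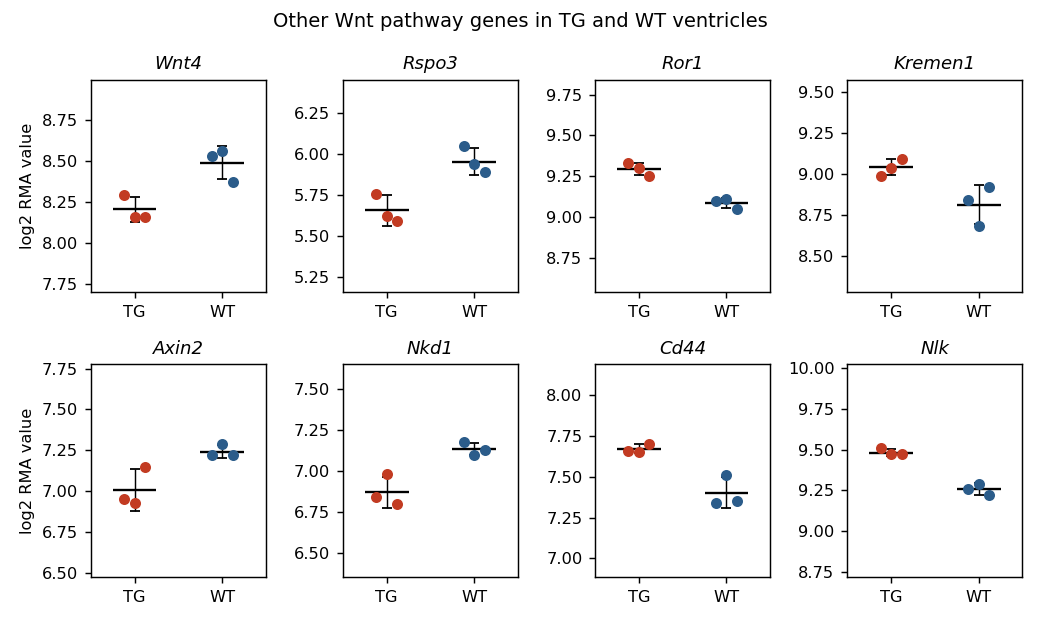
Log2 RMA values (vertical axes, each spanning 1.3 log2 units) of 8 other Wnt pathway genes in TG mice (red, left) and WT mice (blue, right). Points are mice, bars are means of a group and whiskers are its SD (n = 3 each). TG points lie below WT points for Wnt4, Rspo3, Axin2 and Nkd1 and above them for Ror1, Kremen1, Cd44 and Nlk, and none of these genes was at B above 0.

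The genes whose pattern over the 6 mice was most like that of Wif1 were, by Pearson's r, Caskin1 at 0.997, Gng3 at 0.994, Csrp2 at 0.993, Prss27 at 0.992 and Apol7a at 0.991. The 6 values form 2 groups, so such an r mostly restates the difference between TG and WT, and 168 genes had an r above 0.95. Csrp2, a LIM protein of smooth muscle, had log2 values of 8.67, 8.70 and 8.72 in TG mice and 9.15, 9.12 and 9.19 in WT mice. The size of its difference, -0.45 (standard error 0.049), came nearest to that of Wif1 among these 5, whereas the other 4 differed by -0.18 to -0.12.

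Markers of cell types that a ventricle sample can hold were read in the same arrays. Of all genes, 15.4% met the nominal cut-off, 6.65% as higher and 8.76% as lower. Of 10 ventricular cardiomyocyte markers none met the nominal cut-off, and their mean log2 value was 12.30 to 12.32 in TG mice and 12.29 to 12.32 in WT mice. Of 10 atrial markers 1 met it as higher and 4 as lower, and their mean was 8.21 to 8.22 in TG mice and 8.36 to 8.49 in WT mice. The atrial light chains Myl4 and Myl7, at log2 differences of -0.66 (standard error 0.10) and -0.64 (standard error 0.097), were the 2 at B above 0 (limma adjusted p = 0.205 for each). Of 10 valve and cartilage markers 3 were lower and none higher, with a mean of 6.65 to 6.69 in TG mice and 6.75 to 6.82 in WT mice. At the level of this list mean, 6 to 7, the median difference of all genes was -0.070 and 73.2% had a lower mean in TG. The 3 lower markers, Sox9, Comp and Col9a1, had means over the 6 mice between 7 and 8. There the median difference of all genes was -0.041 and 63.0% had a lower mean in TG. Smooth muscle and pericyte markers had 1 higher and 3 lower of 10, with a mean of 9.80 to 9.87 in TG mice and 9.86 to 9.98 in WT mice, and epicardial markers 1 lower of 10, with 7.12 to 7.19 in TG mice and 7.18 to 7.27 in WT mice.

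Cardiac fibroblast markers had 1 higher and none lower of 12, with a mean of 10.991 in TG and 10.943 in WT. Endothelial markers had 2 higher and none lower of 10, with 10.29 to 10.33 in TG mice and 10.23 to 10.27 in WT mice. Every TG mouse thus lay above every WT mouse in this list, with a difference of means of 0.062. Its genes lay above a log2 value of 9, where the median difference of all genes was 0.049 to 0.059. Leukocyte markers had 1 higher and 1 lower of 9, with 7.49 to 7.55 in TG mice and 7.46 to 7.58 in WT mice. The atrial and valve lists were thus lower in every TG mouse than in every WT mouse, as Wif1, Dkk3 and Dkk1 were. The mean of the valve list and its 3 lower markers lay at levels where most genes had a lower mean in TG. The smooth muscle and pericyte list had the same difference of means as the valve list, -0.11. Its mean lay at 9 to 10, where the median difference of all genes was 0.049, but its genes spread widely in level. They ranged from Cnn1, at 6.415 in TG and 6.85 in WT, to Acta2, at 12.24 and 12.46. Cnn1 had the largest difference of the list, -0.435 (standard error 0.16), and lay at 6 to 7, where the median of all genes was -0.070. No single level therefore serves as the background of this list. The groups of the smooth muscle and pericyte list overlapped only in TG mouse 2 at 9.87 and WT mouse 2 at 9.86. The epicardial list, at -0.09, overlapped as well. The part of these cells in the values of the 3 inhibitors was not tested.

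**Figure D5:**
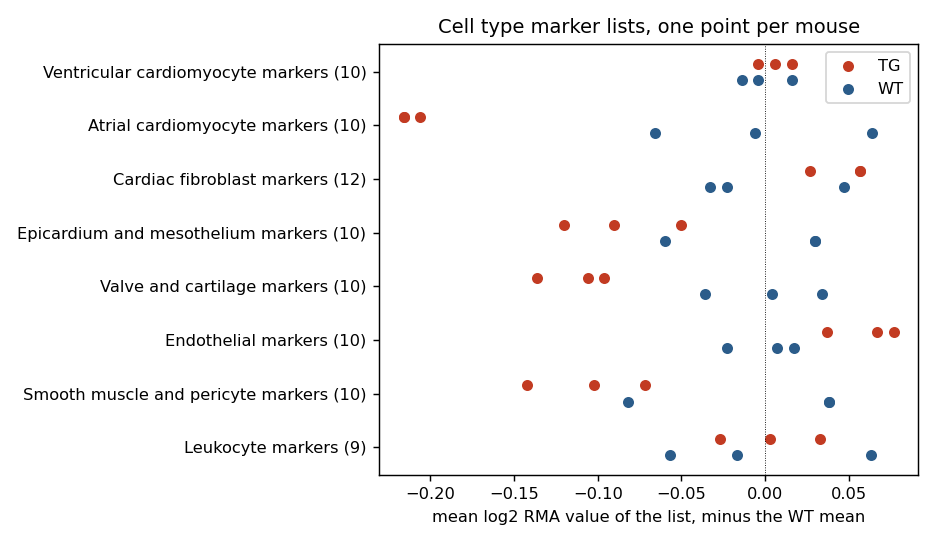
Mean log2 RMA value of each cell type marker list, minus the WT mean of that list (horizontal axis), with the number of measured genes in brackets. Each point is 1 TG mouse (red, upper) or 1 WT mouse (blue, lower). The atrial and the valve and cartilage lists lie lower in all 3 TG mice, the endothelial list higher and the ventricular list overlaps. The endothelial difference, 0.062, is near the median of all genes above a log2 value of 9, 0.049 to 0.059. The smooth muscle and the epicardial lists lie lower in TG on average, with overlap.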

How the data were processed

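RNA of ventricles from 3 TG and 3 WT mice was hybridised to arrays by the authors, each mouse to its own array. Deposited by the authors were log2 values for 35556 probe sets. The submitters' processing notes name RMA, which subtracts background, quantile-normalizes arrays and joins probes into probe sets, in a version not given in the sources used here. All probe sets were fitted with limma 3.58.1 under R 4.3.3 (assumed share of changed probe sets 0.01, Benjamini-Hochberg adjustment over all probe sets), after the script was tested on simulated data. Of the probe sets 130 were at B above 0, and 2 had a limma adjusted p under 0.05. The platform annotation gave 21789 probe sets 1 symbol, 1621 several and 12146 none. Arrays hold no counts, so their number limits the precision.

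Named were the 9 inhibitors, in each pathway list the genes at B above 0 or else up to 3 with the smallest unadjusted p under 0.05, marker genes at B above 0, Mir499 and the 5 genes most like Wif1. Axin2, Myc, Wls, Lrp6, Dkk4, Ctnnb1, Lef1 and Ccnd1 were added after their values were seen. Members and lists were chosen with earlier results of these data known. T and Tcf7 had no probe set with 1 symbol. The alternatives tested were a minimum level, annotated probe sets alone, centred arrays, repeated quantile normalization, a variance trend with intensity, robust variance moderation, weights for arrays, a replicate block, omission of each mouse, and averaging the probe sets of each gene, which was not run for the count over all probe sets.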

Additional observations from a re-analysis of the deposited data

How the results depend on the processing

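Wif1 was lower in TG under all 15 alternatives, at log2 differences of -0.63 to -0.54, Dkk3 under all 15, at -0.42 to -0.32, and Dkk1 under all 14 in which it was tested, at -0.30 to -0.20. Sfrp5 and Dkk2 kept a lower mean in TG, Sfrp1 a higher one, and Sfrp2, Sfrp4 and Frzb, all near 0, took both signs. At B above 0 there was 1 of the 9 inhibitors, and 2 when only probe sets above the median level or only listed probe sets were tested, the second being Dkk3. Those tests hold fewer probe sets. With 1 mouse left out it was Wif1 alone each time. The inhibitors were chosen with this comparison known, so nothing is read from these calls. The labels number the mice and name no litters. Deviations from the group means correlated at -0.0004 to 0.057 for same-numbered mice and at -0.057 to 0.034 for other pairs. With 3 mice in each group these values cannot show whether same-numbered mice were paired. With the replicate block 0 of the 9 were at B above 0 (B of -0.049 for Wif1) and 69 probe sets were. The 130 probe sets became 287 with an intensity trend and 29 to 112 with 1 mouse left out, with 29 and 51 without TG replicates 2 and 3 and 56 and 37 without WT replicates 1 and 2. The pathway lists had 0 genes at B above 0 except with an intensity trend, where 1, Nlk, passed. Their 27 genes at an unadjusted limma p under 0.05 became 14 to 21 with 1 mouse left out, with 16 and 17 without TG replicates 2 and 3 and 14 and 17 without WT replicates 1 and 2. With the replicate block 21 pathway genes were at that p. The cause was not tested.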
